A study of Mus musculus with 45 samples.

Results

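In means of 2 libraries, some open chromatin regions (OCRs) of mouse embryonic stem cells lost accessibility within 2 h of SOX2 depletion. They were back near the untreated level at 24 h, although dTAG-13 was still present. A small set of 45 was chosen for this pattern, and only 7 of them showed it in each replicate on its own. An OCR was taken into the set when its mean CPM (the fragment count of the peak scaled to the library's total in peaks outside the mitochondrial genome) in untreated (NT) SOX2-FKBP cells was at least 4, its 1H and 2H means were at most 65% of NT, and its 24H mean was at least 85% of NT. Of 184964 peaks, 66828 reached the NT level, 7666 of those had the dip at 1H and 2H, and 45 of those were back at 24H. The other 7621 peaks with the same dip were still under 85% at 24H and serve below as the most similar set. All 45 passed the count filters of the tests used here. The 4 thresholds chose the 45 peaks, so their SOX2-FKBP levels at NT, 1H, 2H and 24H, and every ratio to those NT libraries, are given as a description and were not tested.

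The libraries come from 3 knock-in lines grown in serum-free medium with LIF and the MEK and GSK3 inhibitors. For SOX2-FKBP (cell line E14) there are 2 libraries each of NT cells and of cells given 500 nM dTAG-13 for 0.5, 1, 2, 6 or 24 h, for OCT4-FKBP (cell line V6.5) 2 each of NT, 2, 6 and 24 h, and for NANOG-FKBP (E14) 2 of NT and 3 each of 2, 6 and 24 h. In every line, NT cells included, the named protein carries an FKBP degron, at the C-terminus of SOX2 and NANOG, and dTAG-13 directs it to the proteasome. The cultures of a time course were harvested together, so that longer depletion also meant earlier treatment, and how long NT cells had been in DMSO is not clear from the labels. The labels do not say whether libraries with different replicate numbers are separate cultures or clones, so p-values measure only the spread between these libraries. OCT4-FKBP differs from the other lines in parental strain as well as in the tagged protein. In ATACseq, fewer cells with an open site and less opening per cell cannot be told apart.

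SOX2 is an HMG-box transcription factor that binds the minor groove of DNA, in embryonic stem cells often next to OCT4, a POU-domain factor, on a composite motif. Both can engage nucleosomal DNA and keep enhancers of pluripotency genes open, and NANOG, a homeodomain factor, binds many of the same enhancers. LIF acts in these cells through STAT3, which sustains pluripotency beside these factors.

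The sequences below are the 300 bases around the summit of 5 intronic OCRs that met the rule in replicate 1 and in replicate 2 on their own, leaving out the start-proximal Skap2 OCR. They were read from GRCm38.p6 (NCBI RefSeq), the same build as the mm10 of the deposited files. Capitals mark every match, on either strand, to the SOX pattern CNTTGT, the POU octamer pattern ATGCNAAT or the SOX-POU composite pattern TTGTNATGC, which can overlap.
Ust intron, chr10:8297365-8297664, plus strand: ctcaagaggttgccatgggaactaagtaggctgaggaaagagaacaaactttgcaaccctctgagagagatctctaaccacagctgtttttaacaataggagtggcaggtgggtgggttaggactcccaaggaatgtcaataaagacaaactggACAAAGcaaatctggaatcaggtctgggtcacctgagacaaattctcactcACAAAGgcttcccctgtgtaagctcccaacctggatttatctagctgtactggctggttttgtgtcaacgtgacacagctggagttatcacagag
Gm20757 intron, chr10:92247232-92247531, plus strand: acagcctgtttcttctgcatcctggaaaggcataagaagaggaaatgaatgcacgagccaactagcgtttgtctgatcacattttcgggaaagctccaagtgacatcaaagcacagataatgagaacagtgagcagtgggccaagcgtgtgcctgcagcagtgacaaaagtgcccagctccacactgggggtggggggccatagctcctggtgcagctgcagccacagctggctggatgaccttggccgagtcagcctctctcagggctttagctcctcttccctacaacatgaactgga
Gm47448 intron, chr13:45245956-45246255, plus strand: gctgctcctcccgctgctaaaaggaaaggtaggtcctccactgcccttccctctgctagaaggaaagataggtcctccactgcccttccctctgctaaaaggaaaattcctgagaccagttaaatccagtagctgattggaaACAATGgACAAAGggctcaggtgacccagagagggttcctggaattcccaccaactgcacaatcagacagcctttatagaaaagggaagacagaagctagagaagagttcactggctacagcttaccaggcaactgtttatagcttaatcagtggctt
Rasef intron, chr4:73773908-73774207, plus strand: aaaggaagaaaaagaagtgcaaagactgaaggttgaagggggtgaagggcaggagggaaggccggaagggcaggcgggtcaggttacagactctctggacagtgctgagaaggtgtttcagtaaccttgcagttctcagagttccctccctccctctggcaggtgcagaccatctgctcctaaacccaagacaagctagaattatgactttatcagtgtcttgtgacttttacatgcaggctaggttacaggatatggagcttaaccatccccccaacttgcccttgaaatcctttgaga
Got2 intron, chr8:95878635-95878934, plus strand: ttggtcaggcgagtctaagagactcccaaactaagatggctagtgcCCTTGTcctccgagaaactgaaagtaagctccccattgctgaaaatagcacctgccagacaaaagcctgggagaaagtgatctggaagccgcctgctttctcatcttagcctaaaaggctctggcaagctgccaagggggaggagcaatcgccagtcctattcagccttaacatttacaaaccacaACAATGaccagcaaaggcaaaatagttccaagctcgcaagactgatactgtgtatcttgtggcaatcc

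The next sequences are the 3 OCRs of the set with the largest losses 2 h after OCT4 depletion and the Nln intron OCR, shown because it is the 1 member of 45 with a composite match in this window. Hk2 encodes a hexokinase of the first step of glycolysis, Enpp3 an ectonucleotide phosphodiesterase, Ldb2 a binding partner of LIM-domain factors and Nln the metalloendopeptidase neurolysin.
Hk2 intron, chr6:82760882-82761181, plus strand: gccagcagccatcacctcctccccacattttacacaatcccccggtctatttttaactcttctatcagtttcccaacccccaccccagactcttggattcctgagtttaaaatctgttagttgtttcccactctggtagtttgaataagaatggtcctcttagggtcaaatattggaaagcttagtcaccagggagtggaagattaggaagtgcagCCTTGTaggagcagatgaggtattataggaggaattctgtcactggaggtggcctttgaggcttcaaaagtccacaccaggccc
Enpp3 intron, chr10:24834686-24834985, plus strand: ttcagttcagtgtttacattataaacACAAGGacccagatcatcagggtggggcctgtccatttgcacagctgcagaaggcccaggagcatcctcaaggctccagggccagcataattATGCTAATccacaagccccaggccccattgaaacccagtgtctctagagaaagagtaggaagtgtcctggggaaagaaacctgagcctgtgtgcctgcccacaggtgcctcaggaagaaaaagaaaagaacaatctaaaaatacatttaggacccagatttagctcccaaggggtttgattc
Ldb2 intron, chr5:44754222-44754521, plus strand: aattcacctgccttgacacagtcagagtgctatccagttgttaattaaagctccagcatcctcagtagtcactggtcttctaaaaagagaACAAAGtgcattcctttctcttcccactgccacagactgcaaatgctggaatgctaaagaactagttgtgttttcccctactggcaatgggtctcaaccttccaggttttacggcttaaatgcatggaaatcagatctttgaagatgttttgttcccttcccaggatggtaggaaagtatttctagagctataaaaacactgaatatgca
Nln intron, chr13:104032607-104032906, plus strand: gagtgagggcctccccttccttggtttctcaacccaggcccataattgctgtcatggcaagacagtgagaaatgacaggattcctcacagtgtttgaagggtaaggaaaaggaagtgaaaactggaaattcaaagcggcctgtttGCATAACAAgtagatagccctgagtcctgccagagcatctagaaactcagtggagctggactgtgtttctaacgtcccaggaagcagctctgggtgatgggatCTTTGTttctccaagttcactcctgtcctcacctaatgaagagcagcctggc

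The Gm20757 and Rasef windows hold no match to the SOX, octamer or composite pattern, while the Ust, Gm47448 and Got2 windows hold 2 SOX matches each. The Enpp3 window holds 1 SOX match and 1 octamer match. A match is a description of letters and not a binding site.

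Across the 45 OCRs the median level after SOX2 depletion was 67.1% of NT at 0.5H (range 40.8% to 89.2%), 56.8% at 1H (39.1% to 65%), 57.5% at 2H (35.1% to 64.8%), 66.0% at 6H (36.3% to 90.4%) and 91.4% at 24H (85.1% to 128%). The dip was shallower than that of the 7621 peaks that stayed low, whose medians were 55.9%, 44.4%, 39.1%, 32.4% and 24.2% at the same times. Among all 7666 dipped peaks the 24H level had a median of 24.3% of NT and a 99th percentile of 77.1%, so the 45 are the upper end of a distribution that lies mostly far below them. They make up 0.587% of the dipped peaks and 0.0673% of those with enough NT signal. By construction 24H was high, and 9 of the 45 were at or above the NT mean.

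**Figure D1:**
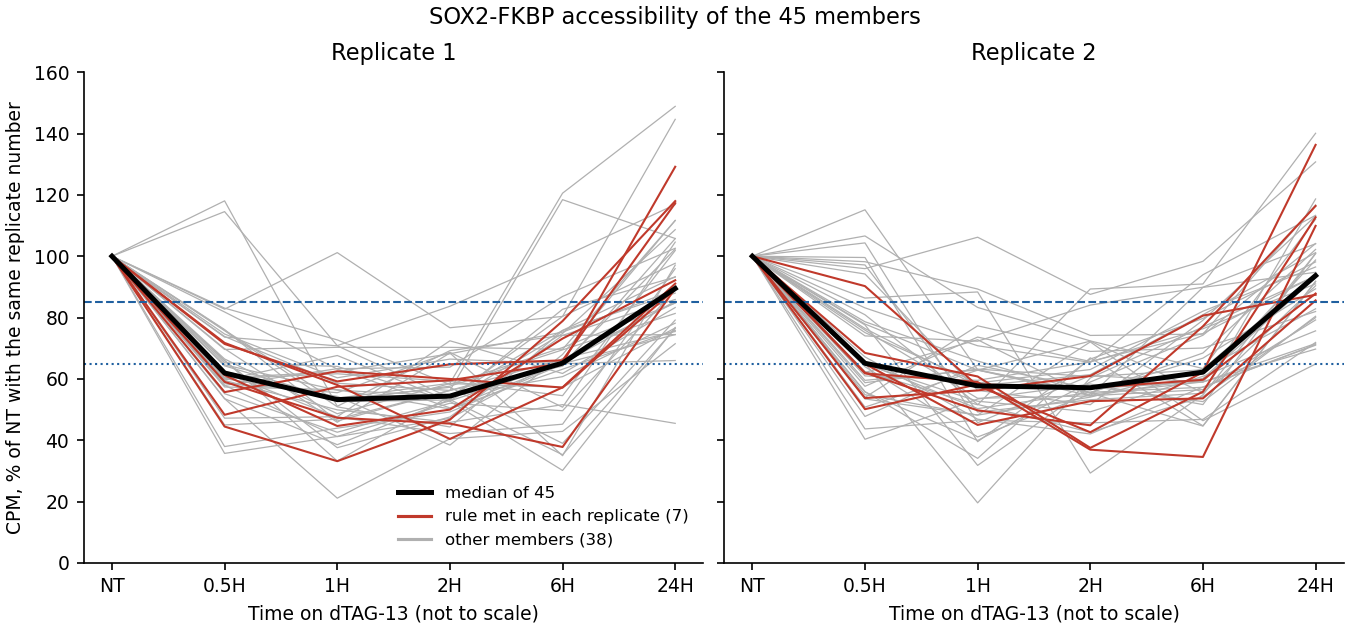
Accessibility of the 45 OCRs in SOX2-FKBP cells, as CPM in percent of the NT library with the same replicate number (y axis), at NT and 5 times on dTAG-13 (x axis, not to scale), replicate 1 on the left and replicate 2 on the right. Grey and red lines are single OCRs (red: the 7 that met the rule in each replicate), the black line is their median, and the dotted and dashed lines are the 65% and 85% thresholds. The medians fell to 53.2% and 57.7% at 1H and reached 89.5% and 93.7% at 24H.

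The 0.5H and 6H libraries were not used by the rule, although they are set against the same NT libraries here and so are described only. Both 0.5H libraries lay below both NT libraries for 35 of the 45, against 24% of all peaks with the NT level, and both 6H libraries for 42, against 29.6%. Both 2H libraries lay below both NT libraries for all 45, against 27.3%, which the rule favours. At 6H, 22 of the 45 were still at or under 65% of NT and 2 had reached 85%. In the medians the larger part of the return fell between 6H and 24H. The rule favours this, because it asked for a high 24H level and left 6H free, so the time of the return is not shown. The 6H mean was above the 2H mean for 35 of the 45, which the rule favours because it kept 2H low. It was above the 0.5H mean, which the rule did not use, for 23 of the 45. Both 24H libraries lay below both NT libraries for 6 of the 45, against 37.3% of all peaks with the NT level, a count that the rule kept low.

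A contrast within the SOX2-FKBP line shares no library with the rule, 6H against 0.5H. Comparing 6H with 0.5H, 0 of the 45 OCRs passed edgeR's quasi-likelihood test at a Benjamini-Hochberg adjusted p of 0.05. The share was 2.47% of all peaks tested and 5.04% of peaks with the NT level. Of the peaks that stayed low 27.3% passed, all of them losses. At an unadjusted p under 0.05, 2 of the 45 were lower, and DESeq2 also called 0. The median log2 fold change from 0.5H to 6H was 0.01 for the 45 and -0.70 for the peaks that stayed low. So the median of the 45 was nearly level over this interval while that of the peaks that stayed low went on falling, a difference between the sets that was not tested.

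The rule takes the mean of 2 libraries, and few members met it in each library on its own. In replicate 1 alone 101 peaks met the rule and in replicate 2 alone 93, of which 17 and 17 are members. Only 7 peaks met it in both, all members, while 20 of the 45 met it in 1 replicate and 18 in neither alone. At 24H the 45 ranged from 45.5% to 149% of NT in replicate 1 and from 64.8% to 140% in replicate 2, and at 2H from 38.4% to 83.7% and from 29.3% to 89.3%.

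Picking on a single replicate and reading the other describes how far the replicates share the pattern. Of the 101 peaks picked on replicate 1, 70 reached the NT level in replicate 2. Among those 70, 22 dipped in replicate 2 (31.4%, against 11.4% of all peaks with the NT level there), 45 were at 85% or more of NT at 24H (64.3%, against 58.5%) and 7 met the whole rule (10.0%, against 0.140%). Of the 93 picked on replicate 2, 68 reached the NT level in replicate 1, where 16 dipped (23.5%, against 12.2%), 49 were back (72.1%, against 61.1%) and 7 met the whole rule (10.3%, against 0.152%). So most peaks picked on either replicate did not dip again in the other. The same 7 peaks are counted in both directions, these libraries are the ones the rule used, and the other 38 rest on means in which at least 1 replicate fell outside a threshold.

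**Figure D2:**
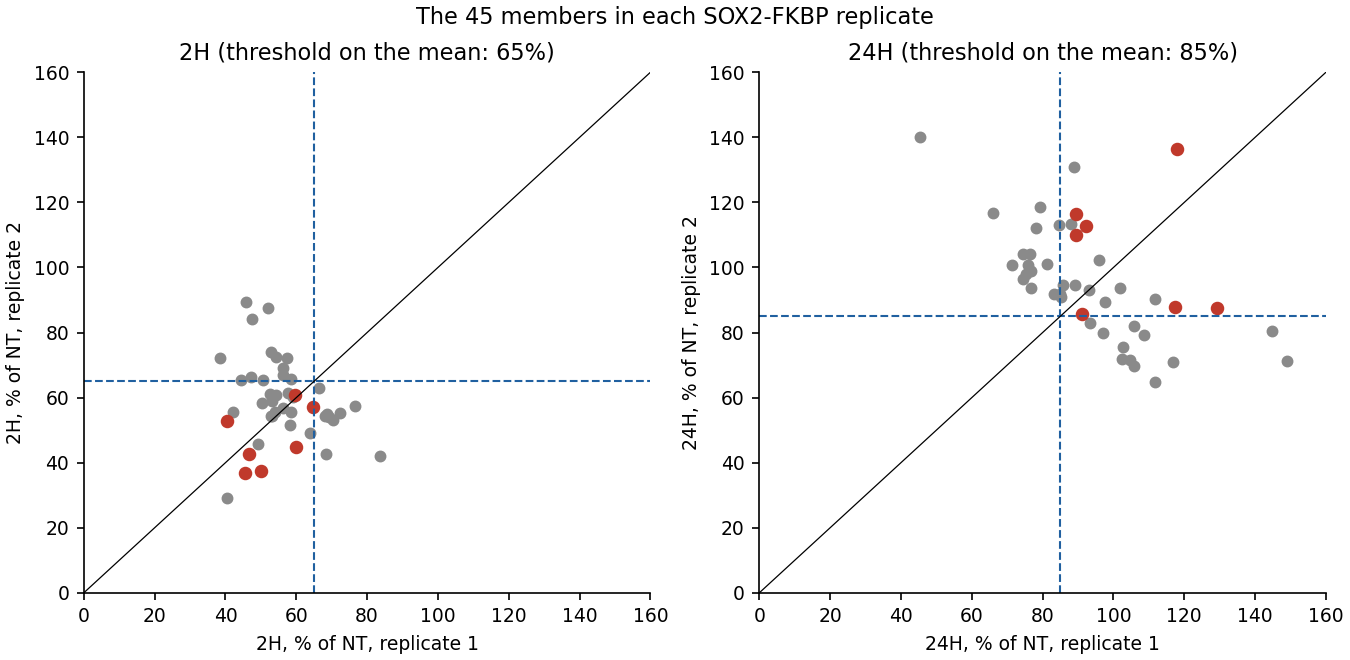
Each of the 45 OCRs in replicate 1 (x axis) and replicate 2 (y axis) of SOX2-FKBP, as CPM in percent of the same-numbered NT library, at 2H (left) and 24H (right). Red points are the 7 that met the rule in each replicate, dashed lines mark the threshold on the mean, and the thin line marks equal values. At 24H the grey points spread from 45.5% to 149% in replicate 1, across the 85% line.

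Counting error alone was large at these depths. The NT libraries hold between 37 and 335 fragments per member in replicate 1 (median 63) and between 18 and 194 in replicate 2 (median 37). With both libraries summed, the 95% binomial interval (exact Clopper-Pearson, counting error only) of 24H over NT reached below 85% for 43 of the 45 and contained 100% for 43, while that of 2H over NT lay below 100% for all 45 but reached above 65% for 40. The rule used these same libraries, so the 2H intervals largely restate it, and the degree of each return is not resolved at this depth.

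The rule turned upside down (1H and 2H raised by the same ratio, 24H back down) gave 379 peaks, which is 36.0% of the 1053 peaks with that rise, and 66 of the 379 (17.4%) met it in each replicate, close to the 15.6% of the 45. By these counts, returns made up a larger share of early rises than of early dips. Both rules take ratios to the same NT libraries. How many peaks of either kind replicate noise alone would give was not tested. Members just inside a threshold differed little from peaks just outside it. The 2310008N11Rik OCR (chr8:26880019-26880941) entered with an NT mean of 4.06 CPM and a peak nearest Gm22616 missed with 3.97. The Enpp3 OCR entered at 65% at 1H and a peak nearest Gm25908 missed at 65.2%. At 2H the intronic Gucd1 OCR (chr10:75499441-75500864) entered at 64.8% and a peak nearest Gm6087 missed at 65.3%, and at 24H the Hmces OCR entered at 85.1% and one nearest Pdlim3 missed at 84.9%.

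The 7 OCRs that met the rule in each replicate are described first. The OCR in an intron of the gene model Gm47448 (chr13:45245769-45246534) had 5.16 and 5.87 CPM at NT, 2.29 and 5.30 at 0.5H, 1.71 and 3.39 at 1H, 2.41 and 2.50 at 2H, 4.07 and 3.65 at 6H and 6.08 and 8.0 at 24H. Both 24H libraries lay above both NT libraries, and at 128% of NT it had the highest 24H level of the 45. The Gm20757 intron OCR (chr10:92246811-92247779) had 6.13 and 5.87 CPM at NT, 2.74 and 3.57 at 1H, 3.06 and 2.2 at 2H, 4.48 and 3.28 at 6H and 5.65 and 6.62 at 24H, where the 24H and NT libraries overlapped.

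The OCR in an intron of Ust (chr10:8296995-8298078), a sulfotransferase that modifies glycosaminoglycan chains, had 10.02 and 8.73 CPM at NT, 5.81 and 3.93 at 1H, 4.05 and 4.6 at 2H, 5.74 and 4.68 at 6H and 9.13 and 7.47 at 24H. It was lowest at 2H with 46.1% of NT. The OCR in an intron of Rasef (chr4:73773612-73774602), a Rab GTPase with EF-hands, had 7.30 and 8.25 CPM at NT, 4.56 and 4.10 at 1H, 4.38 and 3.70 at 2H, 4.17 and 6.37 at 6H and 6.52 and 9.60 at 24H. Its 2H libraries lay apart from the NT and 24H libraries, which overlapped each other.

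The OCR at a start of Skap2 (chr6:51933164-51933573, summit 9 bp upstream of an annotated transcript and within an intron of a longer one), an adaptor of Src-family kinase signalling, had 4.96 and 4.76 CPM at NT, 2.85 and 2.68 at 1H, 2.95 and 2.90 at 2H, 3.23 and 3.84 at 6H and 6.41 and 4.16 at 24H. Its replicates were close at NT, 1H and 2H and apart at 24H. The OCR in an intron of Got2 (chr8:95878269-95879244), the mitochondrial aspartate aminotransferase, was named after its values were seen, and had 9.63 and 13.49 CPM at NT, 5.70 and 7.85 at 1H, 6.24 and 7.70 at 2H, 6.36 and 8.05 at 6H and 11.30 and 11.85 at 24H, where it was at 100.1% of NT.

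The last of the 7 is an intergenic OCR on chromosome 18 (chr18:54576263-54577346). It had 15.18 and 13.01 CPM at NT, 8.96 and 8.04 at 0.5H, 7.18 and 7.67 at 1H, 6.89 and 4.80 at 2H, 5.74 and 4.49 at 6H and 13.58 and 14.30 at 24H. At 36.3% of NT it had the lowest 6H level of the 45, and its 24H libraries lay within the range of the NT libraries.

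The 3 members with the most NT signal per peak (not corrected for peak width) rest on the deepest counts. The OCR in an intron of the antisense RNA Mkln1os (chr6:31369830-31371591, overlapped by Gm14532) had 32.60 and 30.78 CPM at NT, 18.35 and 19.45 at 1H, 17.73 and 18.71 at 2H, 24.72 and 19.38 at 6H and 30.42 and 25.50 at 24H. The OCR at the start of Hmces (chr6:87912891-87914800), whose product binds abasic sites in DNA, had 26.96 and 26.66 CPM at NT, 13.11 and 19.63 at 1H, 15.76 and 17.51 at 2H and 20.64 and 24.97 at 24H. The other Skap2 OCR (chr6:52005893-52007240, intron) had 15.76 and 17.93 CPM at NT, 8.32 and 10.35 at 1H, 9.08 and 11.00 at 2H and 12.82 and 18.14 at 24H. In the Mkln1os and Hmces OCRs both 24H libraries lay below both NT libraries, in the Skap2 OCR they spanned the NT range, and in all 3 the 1H and 2H libraries lay below NT.

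By position, 26 of the 45 summits lay in introns, 16 between genes, 1 in a coding exon (Ubqln1), 1 in an untranslated region (Klhl5) and 1 in a non-coding exon. Within 500 bp of an annotated start lay 6 (13.3%), against 24.9% of peaks with the NT level and 3.25% of the peaks that stayed low, and the median distance to a start was 8232 bp, against 5112 and 12691 bp. The start-proximal members were those of Hmces, Slc39a14 (ZIP14, a zinc transporter), Klhl5 (a kelch-like protein), Maml2 (a co-activator of Notch signalling), Skap2 and 2310008N11Rik. The Slc39a14 OCR (chr14:70350752-70352567) had 12.36 and 16.19 CPM at NT, 6.57 and 8.80 at 2H and 11.52 and 15.05 at 24H. The Klhl5 OCR (chr5:65130529-65131818) had 9.63 and 8.57 CPM at NT, 4.27 and 5.60 at 2H and 8.48 and 9.71 at 24H, and the Maml2 OCR (chr9:13661654-13662858) had 5.64 and 6.98 at NT, 3.28 and 3.60 at 2H and 4.78 and 7.90 at 24H. In these 3 the 2H libraries lay below both NT libraries and the 24H libraries overlapped them.

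The 45 were spread over 17 chromosomes, with 8 on chromosome 6 (17.8%, against 5.28% of peaks with the NT level) and 6 on chromosome 10 (13.3%, against 5.11%), counts chosen after they were seen. Neighbouring OCRs dipped about as often as all peaks with the NT level. Within 50 kb of a member lay 189 other peaks with the NT level, at 40 of the 45 members, and 25 of them dipped (13.2%, against 11.5% of all peaks with the NT level). The median over members of the neighbours' median level was 100.3% of NT at 2H and 99.6% at 24H. The Skap2 pair was the 1 pair of members within 100 kb of each other.

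None of the 45 had its nearest start at a gene of 5 lists of genes relevant to these cells. The lists were 41 pluripotency genes (24 dipped peaks nearest to them, 0 members), 19 formative and primed epiblast genes (7 dipped, 0 members), 16 extraembryonic genes (4 dipped, 0 members), 34 signalling and immediate-early genes (6 dipped, 0 members) and 16 sterol synthesis genes (3 dipped, 0 members). With 0.587% of dipped peaks returning, lists of this size hold too few dipped peaks to show a difference. The labelled cell type was checked at promoters. Of 8 embryonic stem cell genes (Nanog, Sox2, Esrrb and others) 7 had a promoter peak, at 11.5 to 68.2 CPM in NT cells of the 3 lines, and of genes of other cell types Gata1 had one at 1.78 to 2.48 CPM and Gata6, Cdx2 and Neurog1 at up to 26.1, while Alb, Myod1 and Krt5 had none.

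The NT levels of the set differed between the lines. In OCT4-FKBP NT cells the 45 had a median of 55.9% of their SOX2-FKBP NT level, against 93.5% over all peaks with the NT level and 83.0% over the peaks that stayed low. Both OCT4-FKBP NT libraries lay below both SOX2-FKBP NT libraries for 33 of the 45, against 41.2% of peaks with the NT level, and above them for 7, against 27.8%. In NANOG-FKBP NT cells, which share the E14 background, the median was 81.2% (95% over all peaks with the NT level) with 20 of the 45 below (against 34.7%) and 3 above (against 22.1%). The rule asked for a high SOX2-FKBP NT level relative to 1H and 2H, so these comparisons are not independent of it and were not tested. Chromosome 8 held 5.19% of NT counts in SOX2-FKBP, 7.46% in OCT4-FKBP and 6.25% in NANOG-FKBP, which touches the levels of the Got2 and 2310008N11Rik OCRs between lines, and its part in them was not tested.

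OCT4 depletion, which the rule did not use, is the main independent test of how these OCRs respond to loss of a SOX2 partner. Of the 45, 13 changed at 2H (8 lost and 5 gained, edgeR's quasi-likelihood test, Benjamini-Hochberg adjusted p under 0.05), against 7.01% of all peaks tested (5.1% lost and 1.92% gained), 11.8% of peaks with the NT level and 50.5% of the peaks that stayed low. At 6H 17 changed (7 lost and 10 gained, against 12.1% of all peaks tested, 7.97% lost and 4.12% gained, and 18.6% with the NT level) and at 24H 20 changed (4 lost and 16 gained, against 23.5% of all peaks tested, 12.7% lost and 10.8% gained, and 38.5% with the NT level). At 2H the 8 losses (17.8% of the set) stand beside 5.1% of all peaks tested and 48.4% of the peaks that stayed low. At 24H the 16 gains (35.6% of the set) stand beside 10.8% of all peaks tested, 17.5% of those with the NT level and 2.34% of the peaks that stayed low.

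The median log2 fold change of the set after OCT4 depletion was -0.16 at 2H, -0.21 at 6H and 0.30 at 24H, whereas that of the peaks that stayed low was -0.91, -1.21 and -1.63. The set thus held losses and gains side by side. The calls rest on 2 libraries a time. With the replicate number as a block, more members were called at 2H, 6H and 24H, as the closing section gives. Without replicate 1 of OCT4-FKBP 3, 13 and 12 members were called at 2H, 6H and 24H, and without replicate 2 it was 2, 9 and 9. The median standard error over the 45 was 0.30 on the log2 scale at 2H. A change had to be several times its standard error to pass the test. A member without a call is thus not shown to be unchanged.

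**Figure D3:**
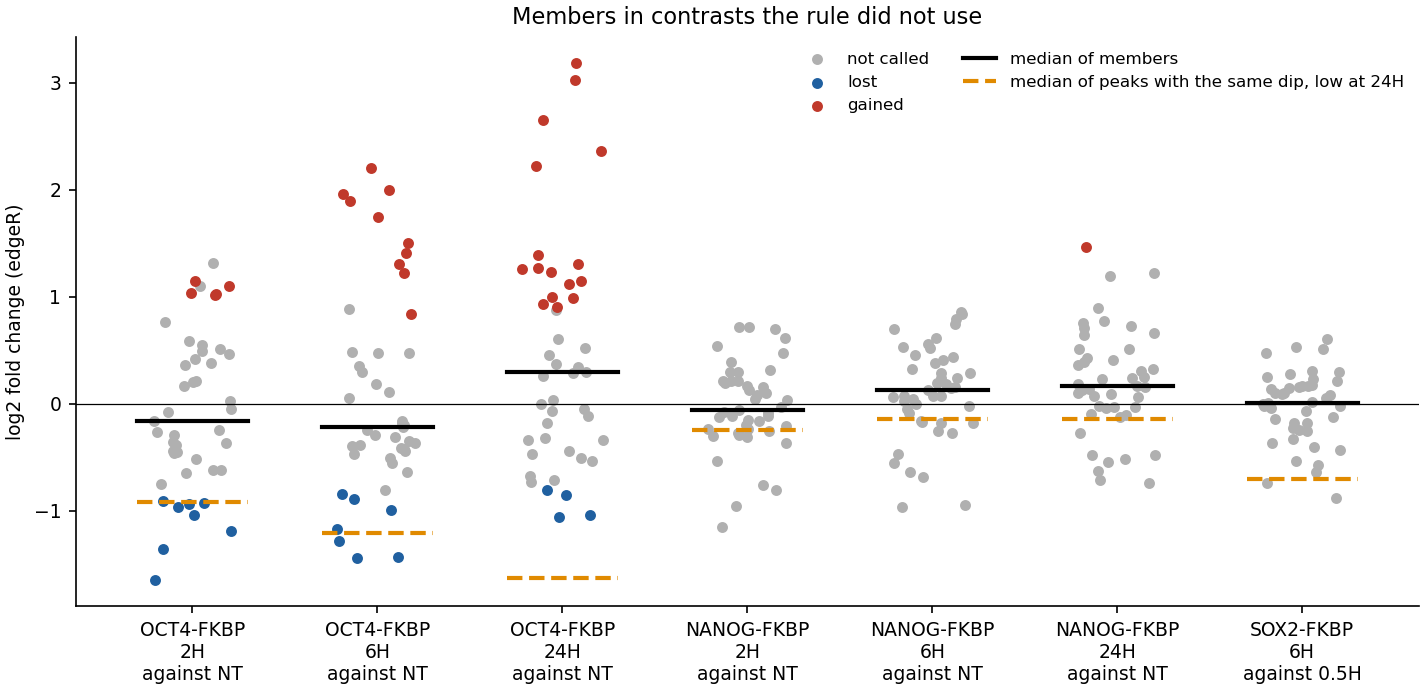
log2 fold changes (y axis, edgeR) of the 45 OCRs in 7 contrasts that share no library with the thresholds' ratios (x axis). Points are single OCRs, coloured by call, black bars are the medians of the 45 and dashed orange bars those of the peaks with the same dip that stayed low. OCT4-FKBP contrasts hold lost and gained members, while the orange bars fall from -0.91 to -1.63.

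Lost at 2H of OCT4 depletion were the OCRs of Hk2, Enpp3, Ldb2, Klhl5, Nln, Hmces, Slc39a14 and Tm7sf3. The Hk2 intron OCR (chr6:82760787-82761170) had 5.80 and 12.27 CPM in OCT4-FKBP NT cells, 2.96 and 2.70 at 2H, 2.99 and 3.47 at 6H and 3.39 and 7.06 at 24H. Both 2H libraries lay below both NT libraries, which themselves differed, and the 2H log2 fold change was -1.65 (standard error 0.30, edgeR adjusted p = 0.000155). Without replicate 2 it was -0.88 and not called. In SOX2-FKBP cells the same OCR had 4.87 and 4.44 CPM at NT, 1.97 and 1.30 at 2H and 3.48 and 4.48 at 24H, the lowest 2H level of the 45.

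The Enpp3 intron OCR (chr10:24834043-24835369) had 15.18 and 13.32 CPM at OCT4-FKBP NT, 6.84 and 4.05 at 2H, 6.29 and 3.73 at 6H and 9.89 and 5.75 at 24H. It was lost at 2H (log2 fold change -1.35, standard error 0.29, edgeR adjusted p = 0.00152) and at 6H, and its 24H libraries lay below both NT libraries without a call. The Ldb2 intron OCR (chr5:44753977-44754906) had 4.06 and 3.43 CPM at NT, 1.29 and 1.82 at 2H, 1.83 and 2.27 at 6H and 1.08 and 2.30 at 24H. It was lost at 2H (log2 fold change -1.19, standard error 0.32, edgeR adjusted p = 0.012) and again at 24H, so it showed no return in this line.

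Start-proximal OCRs were among these losses. The Hmces OCR had 56.97 and 55.03 CPM at OCT4-FKBP NT, 27.56 and 29.34 at 2H, 30.78 and 27.10 at 6H and 42.55 and 39.92 at 24H, with a 2H log2 fold change of -0.93 (standard error 0.25, edgeR adjusted p = 0.0144). It was at 73.6% of NT at 24H, the highest 24H level of the 8, and the change from 2H to 24H did not pass the test (log2 fold change 0.61, edgeR adjusted p = 0.108). The Klhl5 OCR had 11.86 and 10.12 CPM at NT, 4.72 and 5.60 at 2H, 4.52 and 4.11 at 6H and 7.59 and 7.23 at 24H, and the Slc39a14 OCR 37.98 and 38.33 at NT, 19.14 and 20.31 at 2H and 20.19 and 18.73 at 24H. Klhl5 was lost at 2H and 6H and not at 24H, while Slc39a14 was lost at all 3 times.

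As a group the 8 fell to a median of 48.4% of OCT4-FKBP NT at 2H and were at 56.3% at 24H, with none above 73.6%. In SOX2-FKBP cells the same 8 had medians of 54.5% at 2H and 91.7% at 24H. Of the 8, 3 were also lost at 24H (Ldb2, Slc39a14 and Tm7sf3), 5 had no call at 24H, 0 were gained at 24H, and 0 rose from 2H to 24H by the test of that contrast. Over all peaks tested 12.7% were lost and 10.8% gained at 24H, and 6.08% rose from 2H to 24H. For the gains and the rises, 0 of 8 cannot be told apart from these shares. A dip with a return in OCT4-FKBP by the thresholds used in SOX2-FKBP (at most 65% at 2H and at least 85% at 24H of the line's own NT) was seen in 3 of the 45 (6.67%), against 0.566% of peaks with the NT level and 1.08% of the peaks that stayed low. None of the 8 was among those 3, so none of the 3 was called lost at 2H. They were the Gm20757 OCR and the intergenic OCRs nearest 4930404A05Rik and Gm5037. Their 2H levels of 63.8%, 63.0% and 64.5% were just under the threshold. They held 16 and 35, 48 and 80, and 22 and 44 fragments in the OCT4-FKBP NT libraries.

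Gains after OCT4 depletion were more numerous at the later times. The 5 members gained at 2H were the OCRs of Ubqln1, Ust, Kcnk5, Mkln1os and the intergenic OCR on chromosome 18, and all 5 were gained at 24H too. All 10 members gained at 6H were among the 16 gained at 24H. From 2H to 24H 11 members (24.4%) rose by the test of that contrast, against 6.08% of all peaks tested gained and 14.3% changed in either direction. Among peaks with the NT level, 9.3% were gained and 24.4% changed in either direction. That count was 3 without replicate 2 of OCT4-FKBP, and 4 when at least 10 counts were asked of every library. That count filter left only some of the members in the fit, as the closing section gives. The 4 is thus out of fewer members than the 11, and is not shown to be a lower share. The 16 had a median of 3.38 CPM at OCT4-FKBP NT and 8.04 at 24H, beside 6.35 at SOX2-FKBP NT. As the NT libraries of OCT4-FKBP enter each of these gains, the calls at the 3 times share them.

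The Rasef intron OCR had 0.91 and 1.28 CPM at OCT4-FKBP NT, 1.66 and 2.02 at 2H, 5.25 and 4.67 at 6H and 7.32 and 11.99 at 24H. Each time lay above the one before without overlap, and the 24H log2 fold change was 3.19 (standard error 0.35, edgeR adjusted p = 4.76e-09), the largest of the 45. The Gm47448 intron OCR had 1.66 and 1.8 CPM at NT, 3.88 and 4.52 at 2H, 4.64 and 8.53 at 6H and 9.35 and 17.41 at 24H, which gives 3.02 on the log2 scale at 24H (standard error 0.43, edgeR adjusted p = 1.01e-06). The Ust intron OCR had 2.24 and 3.37 CPM at NT, 5.46 and 6.41 at 2H, 7.08 and 11.43 at 6H and 10.03 and 14.95 at 24H, which on the log2 scale is 1.1 at 2H (standard error 0.29, edgeR adjusted p = 0.0119) and 2.22 at 24H (standard error 0.29, edgeR adjusted p = 2.21e-07). In all 3 both 24H libraries lay above both NT libraries.

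The intergenic OCR on chromosome 18 had 10.53 and 4.01 CPM at OCT4-FKBP NT, 16.74 and 11.67 at 2H, 28.21 and 26.41 at 6H and 40.79 and 42.38 at 24H. Both libraries of each time lay above those of the time before, and it was gained at all 3 times (24H log2 fold change 2.66, standard error 0.31, edgeR adjusted p = 1.57e-08). Ubqln1, a ubiquilin that carries ubiquitylated proteins to the proteasome, holds the member with the largest called gain at 2H in a coding exon (chr13:58177860-58178201). It had 3.40 and 3.96 CPM at NT, 7.49 and 8.43 at 2H, 7.76 and 11.24 at 6H and 6.91 and 5.75 at 24H, and its 2H log2 fold change was 1.15 (standard error 0.29, edgeR adjusted p = 0.00685) and a lower one at 24H (0.90, edgeR adjusted p = 0.0299).

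**Figure D4:**
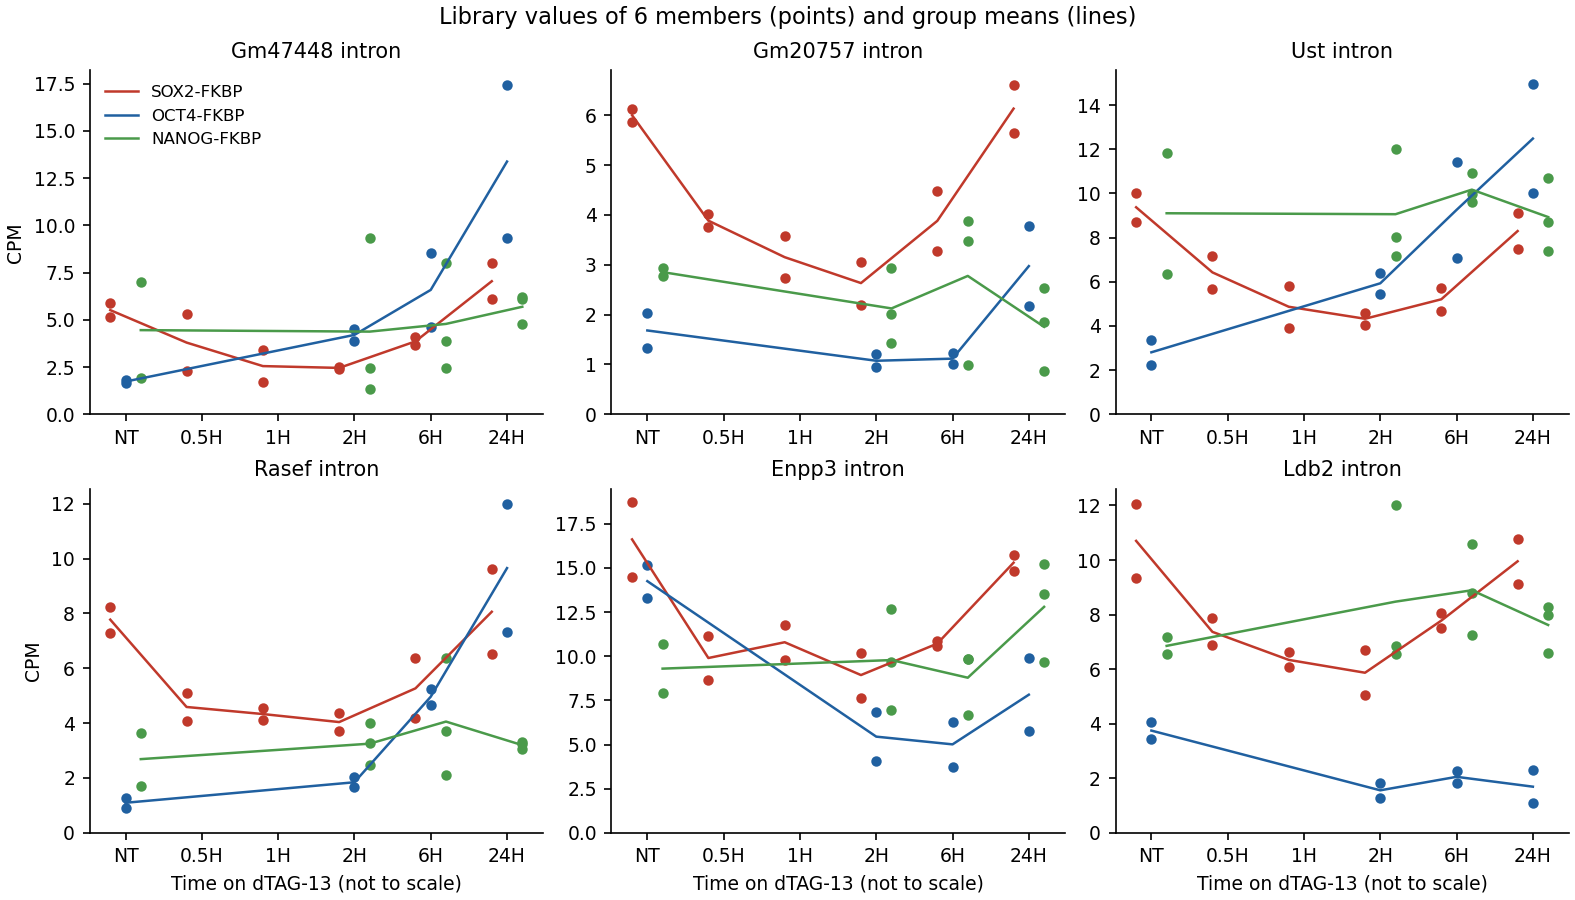
CPM (y axis) of 6 OCRs in every library (points) and their group means (lines) at NT and after dTAG-13 (x axis, not to scale), red for SOX2-FKBP, blue for OCT4-FKBP and green for NANOG-FKBP. Gm47448, Ust and Rasef dip and return in red and rise in blue, to 9.35 and 17.41, 10.03 and 14.95, and 7.32 and 11.99 CPM at 24H, and Enpp3 and Ldb2 fall in blue.

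Of the 7 OCRs that met the SOX2-FKBP rule in each replicate, 4 were gained at 24H of OCT4 depletion (Ust, Gm47448, Rasef and chromosome 18). From 2H to 24H 6 rose (those 4, Gm20757 and Got2), and 0 were lost at 2H. Over all peaks tested the shares were 10.8%, 6.08% and 5.1%, and among peaks with the NT level 17.5%, 9.3% and 8.52%. For the losses, 0 of 7 cannot be told apart from 5.1% or 8.52%. Without replicate 2 of OCT4-FKBP, 2 of those 6 rises were called (Rasef and chromosome 18). Got2 had 18.33 and 19.08 CPM at OCT4-FKBP NT, 14.43 and 13.83 at 2H, 15.08 and 15.22 at 6H and 24.12 and 25.62 at 24H, so it dipped and then passed NT without overlap, although the 2H change had an adjusted p of 0.504 and the 24H change one of 0.0941 (edgeR), and the rise from 2H to 24H passed (log2 fold change 0.88, standard error 0.23, edgeR adjusted p = 0.00798). Gm20757 had 1.33 and 2.04 CPM at NT, 1.2 and 0.94 at 2H and 2.17 and 3.78 at 24H, a rise from 2H to 24H of 1.52 (standard error 0.43, edgeR adjusted p = 0.0137) at low counts.

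Among the other gains at 24H were the OCRs of 2310008N11Rik (2.36, standard error 0.37, edgeR adjusted p = 6.62e-06, on the log2 scale), Mkln1os (1.23), Nfu1, Kcnk5, Ascc3 and Katnal1. Leaving out either replicate number of OCT4-FKBP kept 6 of the 16 called both times, those of Rasef, Gm47448, chromosome 18, 2310008N11Rik, Ust and Mkln1os. The intergenic OCR upstream of Arhgap15 (chr2:43734821-43735684) shows the opposite. It had 3.90 and 4.54 CPM at NT and 3.12 and 13.31 at 24H, so that its call (log2 fold change 1.00, edgeR adjusted p = 0.0261) rests on replicate 2 and was -0.18 without it. The remaining 20 of the 45 were called at no time of OCT4 depletion, with 63.8% to 151% of NT at 2H and 58.9% to 177% at 24H. The share of all peaks tested with no call at any time was not counted, so the 20 are a description.

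After NANOG depletion 1 of the 45 passed the test at any time. At 2H 0 of the 45 passed edgeR's test (0.954% of all peaks tested, 6 of the 45 at an unadjusted p under 0.05), at 6H 0 (1.12%, 5 unadjusted) and at 24H 1, a gain (2.54%, 0.288% gained, 9 unadjusted). DESeq2 called 0 at each time. The member gained at 24H, in an intron of the zinc finger gene Zfp395 (chr14:65360874-65361222), had 2.34 and 0.86 CPM at NT and 5.87, 2.61 and 3.97 at 24H, and its change on the log2 scale was 1.47 (standard error 0.42, edgeR adjusted p = 0.0474). Its lowest 24H library lay above both NT libraries, and without replicate 2 or replicate 3 of NANOG-FKBP it was not called. The replicate 2 libraries of the NANOG-FKBP treated times held the fewest counts of all libraries.

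Between 2H and 24H of NANOG depletion 0 of the 45 passed the test (0.103% of all peaks tested, 6 of the 45 at an unadjusted p under 0.05, DESeq2 0). Same-numbered libraries deviated together in this contrast, and with the number as a block 3 members rose. The 0.103% belongs to the fit without the block, and the share of all peaks called with it was not counted. The start-proximal Skap2 OCR had 4.18, 1.33 and 1.44 CPM at 2H and 7.1, 6.53 and 5.68 at 24H, a blocked log2 fold change of 1.18 (standard error 0.27, edgeR adjusted p = 0.00703). Each 24H library lay above each 2H library, but the 2H libraries held only 47, 2 and 7 fragments of this OCR. The other 2 were the intergenic OCRs near Arhgap15 (0.88, edgeR adjusted p = 0.035) and near 4930404A05Rik (0.85, edgeR adjusted p = 0.0354). The difference between the OCT4-FKBP and NANOG-FKBP responses was tested itself, a contrast added after seeing the data. At 2H 0 of the 45 differed (2.52% of all peaks tested, 4.72% of those with the NT level, 8 of the 45 at an unadjusted p under 0.05, DESeq2 0). At 24H 7 differed (15.6%), against 8.89% of all peaks tested and 16% of those with the NT level. No member was at most 65% at 2H and at least 85% at 24H of NANOG-FKBP NT, against 1.02% of peaks with the NT level.

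Most of the 45 held a SOX match near the summit. In the 300 bases around the summit 35 of the 45 (77.8%) held CNTTGT, against 47.9% of peaks with the NT level and 72.8% of the peaks that stayed low. The composite pattern TTGTNATGC was in 1 of the 45 (2.22%), against 1.70% and 9.57%, and the octamer pattern ATGCNAAT in 4 (8.89%), against 5.56% and 13.1%. Of the 8 members lost at 2H of OCT4 depletion 7 held CNTTGT, and of the 16 gained at 24H 13 did, most of either group.

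Of the other patterns, all searched on both strands, the STAT pattern TTCNNNGAA was in 11 of the 45 (24.4%), against 8.46% of peaks with the NT level and 10.8% of the peaks that stayed low. The RBPJ pattern TGGGAA was in 17 (37.8%, against 27.5% and 25.9%), the TEAD pattern GGAATG in 11 (24.4%, against 18.8% and 23.0%), the KLF pattern GGGNGTGG in 9 (20.0%, against 20.5% and 15.6%) and the ETS pattern CCGGAAGT in 0. In the whole peak 18 of the 45 held the STAT pattern, against 29.1% and 34.9% of the other sets. With 45 members and 19 patterns these shares are a description, and no difference between them was tested. The windows had a median GC content of 48.7%, against 52.7% and 47.0%, and 5 of the 45 (11.1%) were mostly repeat, against 9.48% and 24.8%.

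**Figure D5:**
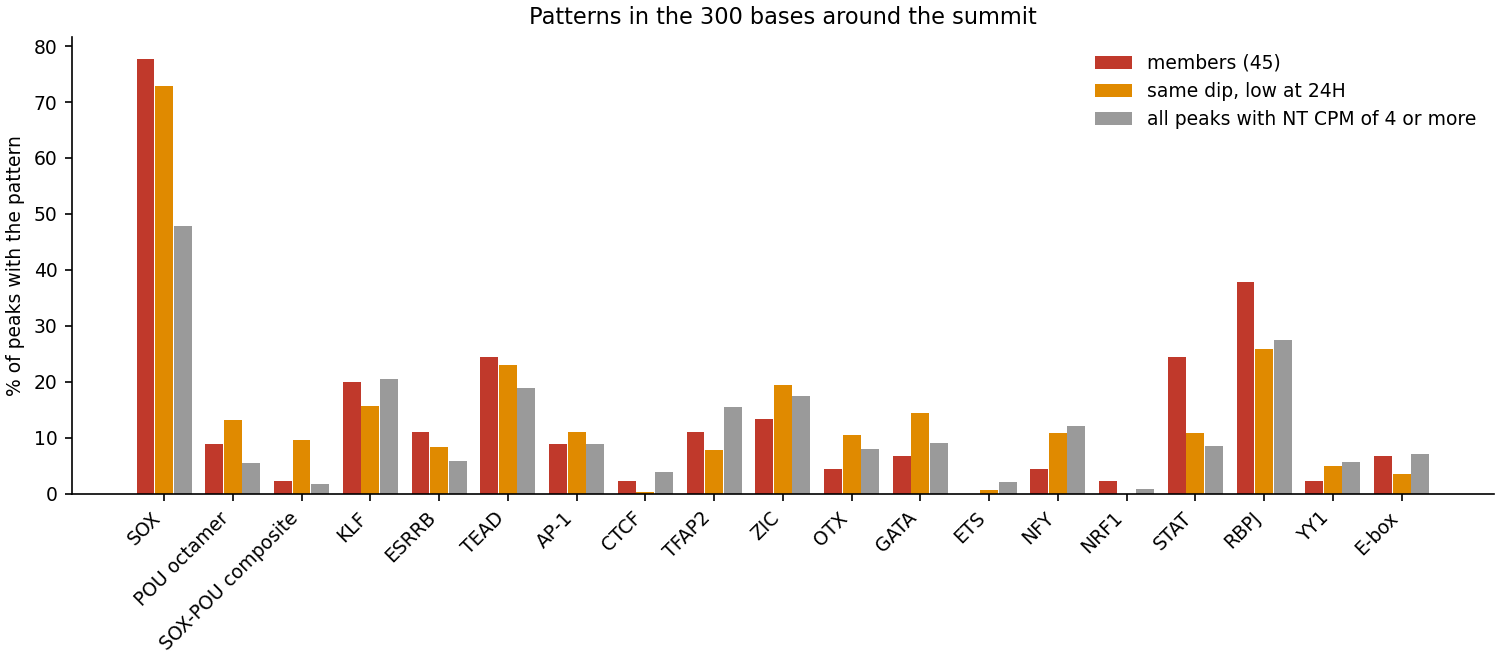
Share of peaks (y axis, %) with each of 19 sequence patterns (x axis) in the 300 bases around the summit, for the 45 OCRs (red), the peaks with the same dip that stayed low (orange) and all peaks with the NT level (grey). The SOX bars stand at 77.8%, 72.8% and 47.9%, the composite bars at 2.22%, 9.57% and 1.70%, and the STAT bars at 24.4%, 10.8% and 8.46%.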

How the data were processed

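Per the labels and methods, the authors aligned paired-end ATACseq reads to mm10 with BWA 0.7.17-r1188, filtered them with SAMtools 1.10 at a mapping quality of 10, removed duplicates with Picard 2.12.0, pooled the libraries to call peaks with MACS2, and deposited raw fragment counts per peak. The deposited peak list also holds a fold enrichment (a ratio) and −log10 p and q-values of the merged libraries, used only for position. Of 45 samples 31 have a column of counts; the other 14 were not analysed here. Counts lay between 1817191 and 17575631 per library (SOX2-FKBP 5664738 to 10887645), with 1.42% to 17.6% mitochondrial, highest in replicate 2 of the NANOG-FKBP treated times.

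The members, lists, patterns and tests were chosen with earlier results of these data known. CPM used column totals without the 2 mitochondrial peaks. OCT4-FKBP and NANOG-FKBP contrasts were fitted on 27 libraries and 166430 peaks (over 10 counts in over 6 libraries), and 6H against 0.5H on the 12 SOX2-FKBP libraries and 160432 peaks (over 10 counts in over 2), with edgeR 4.0.16 in R 4.3.3 (TMM, glmQLFit, glmQLFTest, Benjamini-Hochberg over all peaks tested, threshold 0.05). The 27 libraries include SOX2-FKBP libraries, which enter the shared spread but not these contrasts. The standard error is the log2 fold change divided by the square root of F, and is approximate. DESeq2 1.42.0, the tool of the study, was an alternative. The fit was tested on simulated data. Genes came from the GENCODE annotation of GRCm38, the same build as mm10. Python 3.11.15 with pandas 2.3.3 made the tables.

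Members are named by a rule: the 6 with the deepest dip among those that met the rule in each replicate, the 3 with the most NT signal, those at each threshold, the 3 largest called losses and gains at 2H of OCT4 depletion, the 5 start-proximal ones with the most NT signal, and any on the 5 gene lists. Others were named after their values were seen. A promoter of the cell type check is not reported here.

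Same-numbered libraries deviated together in NANOG-FKBP 2H and 24H (correlations of deviations from the group means 0.236, 0.136 and 0.121 over the 3 pairs). Over all pairs of times the correlations ran from 0.13 to 0.334 in OCT4-FKBP and from 0.079 to 0.224 in SOX2-FKBP. In NANOG-FKBP they ran from -0.02 to 0.294. No label gives a shared culture, so what a number stands for is not known. Counts are given without and with the number as a block.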

Additional observations from a re-analysis of the deposited data

Results flagged for a closer look

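At 24 h the OCT4-FKBP and NANOG-FKBP responses differed by the test of the difference itself for 7 of the 45 OCRs (15.6%). This is a contrast of the 27-library edgeR fit added after seeing the data. The share was 8.89% of all peaks tested, 16% of peaks with the NT level and 49.1% of the peaks that stayed low. The count of 7 is thus near the share of peaks with the NT level. The log2 fold change in OCT4-FKBP minus that in NANOG-FKBP was 2.24 for Ust (standard error 0.39, edgeR adjusted p = 0.00011), 2.72 for Gm47448 (0.61, edgeR adjusted p = 0.00232), 2.01 for the intergenic OCR on chromosome 18 (0.44, edgeR adjusted p = 0.00172) and 2.95 for Rasef (0.52, edgeR adjusted p = 0.000102). It was 2.84 for 2310008N11Rik (0.55, edgeR adjusted p = 0.000412), 1.16 for Mkln1os (0.34, edgeR adjusted p = 0.0219) and -1.14 for the intronic OCR of Scfd2 (chr5:74265121-74266768; 0.38, edgeR adjusted p = 0.0493). The 6 positive differences belong to OCRs gained in OCT4-FKBP, with a NANOG-FKBP log2 fold change between -0.47 and 0.65 and no call there, except that a fit blocked on replicate number called the chromosome 18 OCR gained at 24H of NANOG depletion (log2 fold change 0.83, edgeR adjusted p = 0.0292). That block raised the 7 differences to 15, while the shares given above belong to the fit without it. The Scfd2 OCR had 5.47 and 7.45 CPM at OCT4-FKBP NT and 2.44 and 3.45 at 24H, and 10.52 and 11.37 at NANOG-FKBP NT and 10.95, 10.88 and 12.82 at 24H. The lines also differ in parental strain (V6.5 and E14), which cannot be told apart from the depleted protein.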

How the results depend on the processing

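The number of OCRs that met the rule was 73 with TMM-scaled library sizes (43 of them among the 45), 9 with 24H at 1.0 of NT or more, 2 with dips to 0.5, 14 with an NT mean of 8 CPM, 93 to 101 on a single replicate, 7 in both separately and 379 for the mirror image. With at least 10 counts in every library, which left 14 of the 45 in the fit, OCT4-FKBP calls were 5 at 2H, 9 at 6H, 8 at 24H and 4 from 2H to 24H. Leaving out a replicate number leaves 1 library per OCT4-FKBP arm, so the spread is pooled and the lone library is assumed to vary like the rest; calls were 2 to 3 at 2H, 9 to 13 at 6H, 9 to 12 at 24H and 3 to 10 from 2H to 24H, and 0 to 1 for NANOG-FKBP 24H. For SOX2-FKBP single libraries were left out instead. Total counts moved the median of all peaks at OCT4-FKBP 24H by -0.12 (log2) and gave 5 lost and 13 gained. NANOG-FKBP 24H calls were 0 with DESeq2, total counts, the count filter and that line alone. SOX2-FKBP 6H against 0.5H gave 1 call in its 4 libraries alone.

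With the replicate number as a block, calls were 16, 19 and 24 at OCT4-FKBP 2H, 6H and 24H and 18 from 2H to 24H, 2, 2 and 5 at NANOG-FKBP 2H, 6H and 24H and 3 from 2H to 24H, and 2 for SOX2-FKBP 6H against 0.5H. The differences between OCT4-FKBP and NANOG-FKBP became 4 at 2H and 15 at 24H. For none of these blocked counts was the share of all peaks called counted, so whether the block raised calls everywhere is not shown. Without the block, the 24H difference was 4 with the count filter. It had 0 lost and 9 gained under DESeq2 size factors and 3 lost and 6 gained under total counts. The 2H difference was 1 under total counts and 0 to 1 without a replicate. The SOX share was above that of peaks with the NT level by 29.9 points, by 6.01 in whole peaks and by 4.99 against the peaks that stayed low. The Arhgap15 call at OCT4-FKBP 24H ran from -0.18 without replicate 2 to 1.57 without replicate 1. Other called members kept their direction under all alternatives run. The cause of these shifts was not tested.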
